A study of Mus musculus with 36 samples.

Results

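The organic ion uptake carriers of the Slco, Slc22 and Slc10 families were examined for H3K9me3, a histone mark of repressed chromatin, in the livers of mouse offspring. Members were taken by name, as every autosomal bin whose annotated gene begins with Slco, Slc22a or Slc10a and a number. The rule uses no measured value, but the families were chosen with earlier results of these data known. This gave 48 of the 21394 autosomal genes with a bin in any of 6 deposited tables. The carriers held between 312 bins in males at 8 weeks and 475 bins in males at 3 weeks. These were 0.308% and 0.299% of the autosomal bins of those tables, and the share was 0.327% at most, in the control females.

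The offspring came from an in-house colony with a floxed Reg3g allele on a C57BL/6J background, as floxed control mice. Control females (CF) and control males (CM) were born to dams on chow, and maternal obesity females (MF) and males (MM) to dams kept on a Western-style diet from before mating. Livers were taken at 3 weeks, before weaning, and at 8 weeks, after a period on chow that all groups shared. Each of the 8 combinations of diet, sex and age had 4 ChIP libraries from whole liver, 32 in all, with 4 input libraries. Whole liver holds other cells beside hepatocytes, and tables of this kind hold no expression by which the tissue could be checked. The values used here pool the 8 libraries of a table's 2 groups into 1 average per bin, so they give no value per library and no spread. The authors' own tests between groups were not used, and none was run here. All differences below are descriptions. A difference between an 8-week and a 3-week table joins both maternal diets, and the effect of maternal diet itself is not analysed here.

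Many carriers of these families sit in the plasma membrane and bring organic anions, organic cations, bile acids, steroid conjugates, carnitine and many drugs into cells. In liver, Slco1b2, Slc10a1 and Slc22a7 serve the uptake side of the hepatocyte, facing the blood, while several relatives are known from kidney, intestine or testis. Many of the genes lie in clusters of close paralogs, among them the Slco1 genes of chromosome 6 and the Slc22 genes of chromosome 19. H3K9me3 often covers repeated sequence and clustered gene families, where it accompanies silent chromatin.

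Sequences of the bins on which the results turn are shown 5′ to 3′ on the plus strand of GRCm38.p6, 300 bases around the centre of each bin, with CpG dinucleotides in capitals. The bin upstream of Slco1b2 had the highest level of all carrier bins in each of the 3 female tables. The bin upstream of Slc22a27 had the largest positive difference between ages in males. The bin upstream of Slc22a30 was among the strongest in both sexes. The Slc10a7 intron bin had the largest negative difference in females.
Slco1b2, chr6:141599045-141599344: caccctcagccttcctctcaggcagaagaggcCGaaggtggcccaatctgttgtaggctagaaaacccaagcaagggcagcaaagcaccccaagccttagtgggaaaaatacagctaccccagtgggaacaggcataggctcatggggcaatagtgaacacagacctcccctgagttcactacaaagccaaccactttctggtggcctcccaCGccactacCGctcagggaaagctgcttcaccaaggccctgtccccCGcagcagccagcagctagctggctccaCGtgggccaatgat
Slc22a27, chr19:8024498-8024797: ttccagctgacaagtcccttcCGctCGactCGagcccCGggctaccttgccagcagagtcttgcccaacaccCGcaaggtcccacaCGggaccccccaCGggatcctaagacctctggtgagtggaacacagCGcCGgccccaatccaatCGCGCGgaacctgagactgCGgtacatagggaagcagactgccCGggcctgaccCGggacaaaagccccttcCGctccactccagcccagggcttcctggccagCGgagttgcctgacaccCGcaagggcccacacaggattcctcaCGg
Slc22a30, chr19:8421990-8422289: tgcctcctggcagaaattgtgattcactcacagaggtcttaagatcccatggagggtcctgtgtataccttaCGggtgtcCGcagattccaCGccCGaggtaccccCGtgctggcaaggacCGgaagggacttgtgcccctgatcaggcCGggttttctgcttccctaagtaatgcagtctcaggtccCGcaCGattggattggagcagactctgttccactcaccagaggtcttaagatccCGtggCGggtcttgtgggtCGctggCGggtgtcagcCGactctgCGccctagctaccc
Slc10a7, chr8:78609378-78609677: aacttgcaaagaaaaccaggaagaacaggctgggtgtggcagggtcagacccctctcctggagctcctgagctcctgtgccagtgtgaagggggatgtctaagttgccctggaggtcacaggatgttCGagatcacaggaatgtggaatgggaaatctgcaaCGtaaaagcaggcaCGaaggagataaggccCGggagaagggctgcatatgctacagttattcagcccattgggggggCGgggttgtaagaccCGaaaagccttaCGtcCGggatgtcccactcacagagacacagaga
The Slc22a27 window held 19 CpG and was 98.3% soft-masked, the mark that the reference uses for repeated sequence. The Slc22a30 window held 15 CpG and was 87.3% masked. The Slco1b2 window held 5 CpG and was 7.67% masked, and the Slc10a7 window held 8 CpG and was 7.67% masked. Over the whole bin the masked share was 82.6% for Slc22a27, 92.4% for Slc22a30, 39.7% for Slco1b2 and 7.92% for Slc10a7.

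Carrier bins had levels close to those of all autosomal bins. Levels are the authors' average log2 CPM, in which CPM scales a bin's count by the size of its library. In females the median of the carrier bins was 2.48 at 3 weeks and 2.68 at 8 weeks, beside 2.40 and 2.62 over all autosomal bins. In males it was 2.09 and 2.78, beside 2.03 and 2.74. In each of the 6 tables more carrier bins lay above the table's own median than below it, from 56.2% in the control females to 62.9% in females at 3 weeks. The share in the top 10% of a table ran from 14.0% in females at 8 weeks to 17.9% in males at 3 weeks. The strongest carrier bin reached 4.44 in males at 8 weeks.

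The bins were spread unevenly over the genes. Slc10a2, the ileal bile acid carrier, had the most, with 53 bins in each sex at 3 weeks, 50 in females and 44 in males at 8 weeks. None of them lay in the body of Slc10a2, and the farthest was 1756 kb from its start. Slc10a7 had 34 bins in females at 3 weeks, of which 32 lay in its own body. Slco3a1 had 26 bins in each sex at 3 weeks. Slc10a4-ps and Slco4c1 had a single bin in every table, and 46 genes had a bin in all 6 tables. Slc10a5 was the 1 protein-coding carrier of the GENCODE M21 annotation with no bin.

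**Figure D1:**
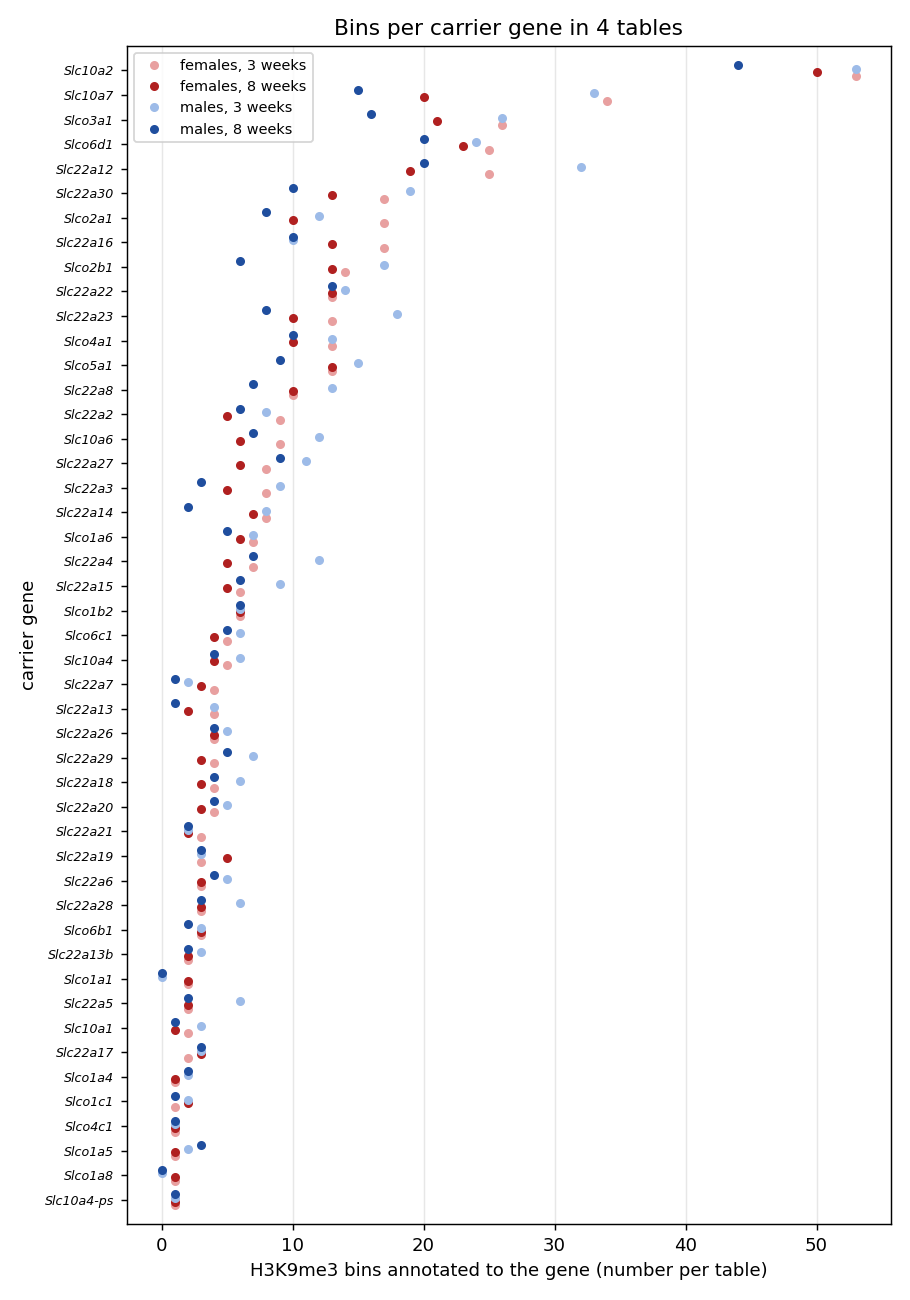
Number of H3K9me3 bins annotated to the carrier genes shown (horizontal axis, bins per table) for females and males at 3 and 8 weeks, 1 point per table. Slc10a2 stands apart with 44 to 53 bins, and most genes have fewer bins at 8 than at 3 weeks. All autosomal bins are also fewer at 8 weeks, 109596 beside 133697 in females and 101386 beside 158810 in males.

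A bin is annotated to the gene with the nearest start, so many carrier bins lay outside the carriers. Between 36.9% of the carrier bins, in males at 8 weeks, and 41.3%, in males at 3 weeks, overlapped the body of the gene they are named for. In females at 3 weeks, 178 bins lay in the own gene, 23 in another coding gene and 233 between coding genes. The bins of Slc22a7, the liver organic anion carrier Oat2, lay mostly in the neighbour Ttbk1. Distal intergenic bins made up 43.3% of the carrier bins and 38.1% of all bins in females at 3 weeks, and 48.1% and 38.2% in males at 8 weeks. Bins within 1 kb of a start were 7.83% of the carrier bins and 12.8% of all bins in females at 3 weeks. In males at 8 weeks they were 8.33% and 16.2%.

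Among the hepatocyte uptake carriers, Slco1b2 and Slc22a30 had the strongest bins at both ages in both sexes. All 8 genes of that list had a bin in the female tables and 7 in the male tables. Slco1b2, which takes up bilirubin, bile acids and statins, carried a bin about 30.1 kb upstream of its start at chr6:141598944-141599444 in females. Its level there was 3.81 at 3 weeks, 4.27 at 8 weeks and 3.97 in the control females of both ages. The matching male bin at chr6:141598916-141599416 was at 3.49, 4.25 and 3.61. These levels placed the female bin at the 99.8th percentile of its table or above. No bin overlapped the body of Slco1b2 itself in any table.

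Slc22a30, a rodent organic anion carrier, had its strongest bin 16.8 kb upstream of the start, at chr19:8421889-8422389 in females. The level was 3.34 at 3 weeks and 3.92 at 8 weeks. In males the bin at chr19:8421885-8422384 was at 3.18 and 4.33. Slco1a1, a carrier of steroid conjugates, had bins in the female tables only. Its intron bin was at 2.31 and 2.42 at 3 and 8 weeks, and the bin 9.74 kb upstream of its start was at 3.01 and 3.08. Slco1a4 had 1 bin in each female table, at 2.47 and 2.50, and 2 in each male table.

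Slc10a1, the sodium-dependent bile acid carrier, had few bins. In males a bin 1.35 kb upstream of its start was at 2.71 at 3 weeks, 2.79 at 8 weeks and 2.60 in the control males. The female tables list no bin there, and the female bin 22.3 kb upstream was at 2.11 and 2.31. A male bin overlapped it at 3 weeks, at 1.89. Slco2b1 had a bin over its start in females, at 2.58 at 3 weeks and 2.25 at 8 weeks. In males the bin over that start was listed at 3 weeks, at 2.32, and in the control males, at 2.31. Slc22a7 had a bin near its start in females at 3 weeks only, at 2.38.

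**Figure D2:**
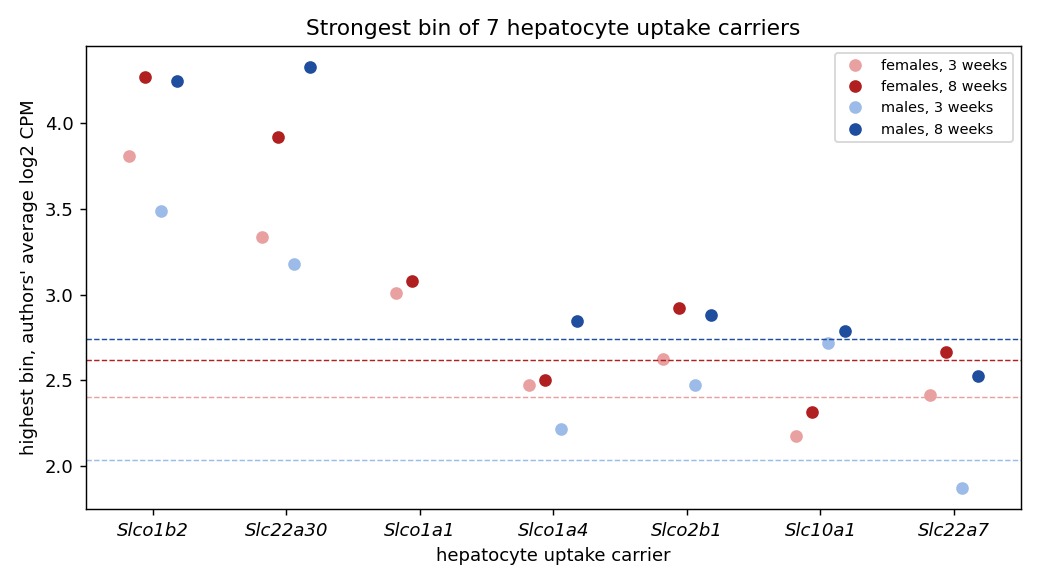
Highest bin of 7 hepatocyte uptake carriers (vertical axis, authors' average log2 CPM) in females and males at 3 and 8 weeks, with each table's median over all autosomal bins as a dashed line of the same colour. The bins of Slco1b2 and Slc22a30 lie above 3.1 in all 4 tables, and Slco1a1 has no male bin.

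A bin lay within 1 kb of an annotated start for 28 of the 48 carrier genes, 58.3%, beside 77.8% of all genes with a bin. For 16 of them, 33.3%, this held in all 6 tables, beside 39.2% of all genes. Among these were Slc10a4-ps, the organic cation carriers Slc22a2 and Slc22a3, the carnitine carriers Slc22a4, Slc22a5 and Slc22a21, and Slc22a15, Slc22a17, Slc22a18, Slc22a23, Slco2a1, Slco3a1, Slco4a1, Slco4c1 and Slco5a1. Near the starts of the other 12, Slc10a4, Slc10a6, Slc10a7, Slc22a6, Slc22a7, Slc22a8, Slc22a13, Slc22a13b, Slc22a14, Slc22a16, Slc22a20 and Slco2b1, a bin was listed in some tables. Slc10a7 and Slc22a7 had theirs in female tables only and Slc10a6 in male tables only. No gene of the Slco1 cluster on chromosome 6 had such a bin. The strongest start bin was an internal start of Slco3a1, a prostaglandin and thyroid hormone carrier, at chr7:74504118-74504618. It was at 2.84 in males at 3 weeks, 3.67 at 8 weeks and 2.92 in the control males, and the female bin was at 3.46 at 8 weeks.

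Promoter windows of 300 bases around the start were found in RefSeq (GRCm38.p6) for 40 of the carrier genes, 46 windows in all. A carrier bin overlapped 17 of them, in 16 genes. Windows with a bin held a median of 8 CpG and windows without one a median of 2, beside 7 over all 32851 promoters. The motif CG, the same on both strands, occurred in 94.6% of all promoters. The window of Slco2a1, the prostaglandin carrier, was overlapped by a bin in all 6 tables and is shown for that reason, 5′ to 3′ on the plus strand with CpG in capitals.
Slco2a1, chr9:103008237-103008536: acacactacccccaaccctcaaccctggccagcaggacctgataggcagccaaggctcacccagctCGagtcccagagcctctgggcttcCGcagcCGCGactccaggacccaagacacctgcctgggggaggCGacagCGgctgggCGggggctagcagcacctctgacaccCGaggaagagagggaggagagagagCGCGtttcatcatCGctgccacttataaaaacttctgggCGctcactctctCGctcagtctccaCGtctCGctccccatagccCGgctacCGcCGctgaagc
It held 18 CpG. The bin over it in females was at 2.51 at 3 weeks and 2.74 at 8 weeks, and in males at 1.90 and 2.73. All 4 levels were close to the table medians.

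The age comparison asks how the mark at these genes differed between livers before weaning and livers of young adults. It used bins with the same coordinates in the 3-week and 8-week tables of a sex, which share no library. In females 270 carrier bins of 44 genes could be compared, and in males 225 bins of 43 genes. The tables were normalized separately, and the median over all autosomal bins was higher at 8 weeks by 0.22 on the log2 scale in females and by 0.63 in males. The carrier medians were 0.20 and 0.65. An absolute difference of at least 0.5 was found for 34 carrier bins in females, where 15.1% of all bins passed, and for 152 in males, where 68.0% passed. As shares of the carrier bins these were 12.6% and 67.6%.

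Relative to the median of all bins, 9 carrier bins were higher by at least 0.5 at 8 weeks in females, 3.33% of them, beside 3.47% of all bins. Lower by at least 0.5 were 11, or 4.07%, beside 2.78%. In males 11 were higher, 4.89% beside 5.43%, and 8 lower, 3.56% beside 3.47%. The carrier shares were thus near the background in each sex and direction. Below, relative differences are meant.

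In females the 5 genes with the largest positive difference were Slc22a22, Slc10a2, Slco6d1, Slc22a27 and Slc10a7. Slc22a22, a prostaglandin carrier known from kidney, had an intergenic bin at chr15:57025393-57025893 that went from 2.33 to 3.35, a relative difference of 0.81. Its intron 2 bin at chr15:57291641-57292141 went from 2.62 to 3.63, a relative difference of 0.79. Slc10a2 had an intergenic bin 145.0 kb from its start that went from 2.29 to 3.23. The bin of Slco6d1, a testis carrier, lay within its body in the exon of another transcript and went from 2.30 to 3.12. The Slc22a27 bin at chr19:8024369-8024869 went from 3.01 to 3.79, and the last exon of Slc10a7 from 2.36 to 3.12.

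The 5 genes with the largest negative difference in females were Slc10a7, Slc22a29, Slc10a6, Slco3a1 and Slco2b1. Slc10a7, a carrier with a role in skeletal development, went from 2.78 to 2.27 at chr8:78609376-78609678 in intron 5, a relative difference of -0.72. Another bin of that intron went from 2.83 to 2.38. Slc10a7 was thus at both ends, with a lower intron and a higher last exon. The Slc22a29 bin, between genes of the chromosome 19 cluster, went from 2.78 to 2.38. The Slc10a6 bin lay in exon 45 of Ptpn13 and went from 2.75 to 2.37. For Slco3a1 the bin 2.36 kb from an annotated start went from 2.52 to 2.15. For Slco2b1 the intron bin went from 2.54 to 2.19, and the bin over the start had a relative difference of -0.55.

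In males the 5 genes with the largest positive difference were Slc22a27, Slc22a8, Slc10a2, Slc22a22 and Slc22a16. The Slc22a27 bin, 58.4 kb upstream of the start at chr19:8024397-8024897, went from 2.80 to 4.44, a relative difference of 1.01 and the 99.8th percentile of all bins. Slc22a8, the renal organic anion carrier Oat3, had an intergenic bin 41.6 kb upstream that went from 2.66 to 4.09. An intergenic bin of Slc10a2 went from 2.39 to 3.71, and the intron 2 bin of Slc22a22 from 2.56 to 3.88. The Slc22a16 bin, 4.80 kb upstream of the start of this carnitine carrier of testis, went from 2.82 to 4.09. Of the hepatocyte carriers, Slc22a30 went from 3.18 to 4.33 at its strongest bin, a relative difference of 0.52. A bin annotated to Slco1b2, but lying in an intron of Gm5724, went from 1.93 to 3.13.

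The 5 genes with the largest negative difference in males were Slco2a1, Slc10a2, Slco1b2, Slc10a7 and Slc10a1. For Slco2a1 an intergenic bin 36.9 kb upstream went from 2.79 to 2.60, a relative difference of -0.83. An intergenic bin of Slc10a2 went from 2.90 to 2.73. A bin 28.2 kb upstream of Slco1b2 went from 2.85 to 2.75, a relative difference of -0.73. The bin 1.35 kb upstream of Slc10a1 went from 2.71 to 2.79, a relative difference of -0.56. Slc10a7 went from 2.48 to 2.47 in an intergenic bin.

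Bins of the 2 sexes that overlapped by at least 0.5 of each bin's length allowed 143 carrier places to be set side by side. The relative age differences had a Spearman correlation of 0.43 across these places, which share the libraries of each table, beside 0.42 over 32465 autosomal places. Higher by at least 0.5 in both sexes were 3 of these places, 42.9% of the 7 found in females and 37.5% of the 8 found in males. Over all autosomal places these shares were 33.1% and 26.3%. They were the intergenic bin upstream of Slc22a27 and the intron 2 bins of Slc22a22 and of Slc22a19, a renal organic anion carrier. In Slc22a19 the difference was 0.54 in females and 0.62 in males. Lower in both was 1 place, 33.3% of the 3 found in females and 25.0% of the 4 found in males, beside 15.5% and 8.90% over all autosomal places. It lay upstream of Slco1b2, with -0.56 in females and -0.73 in males. The strongest Slco1b2 bin, 30.1 kb upstream, was higher at 8 weeks in both sexes, so neighbouring bins differed.

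**Figure D3:**
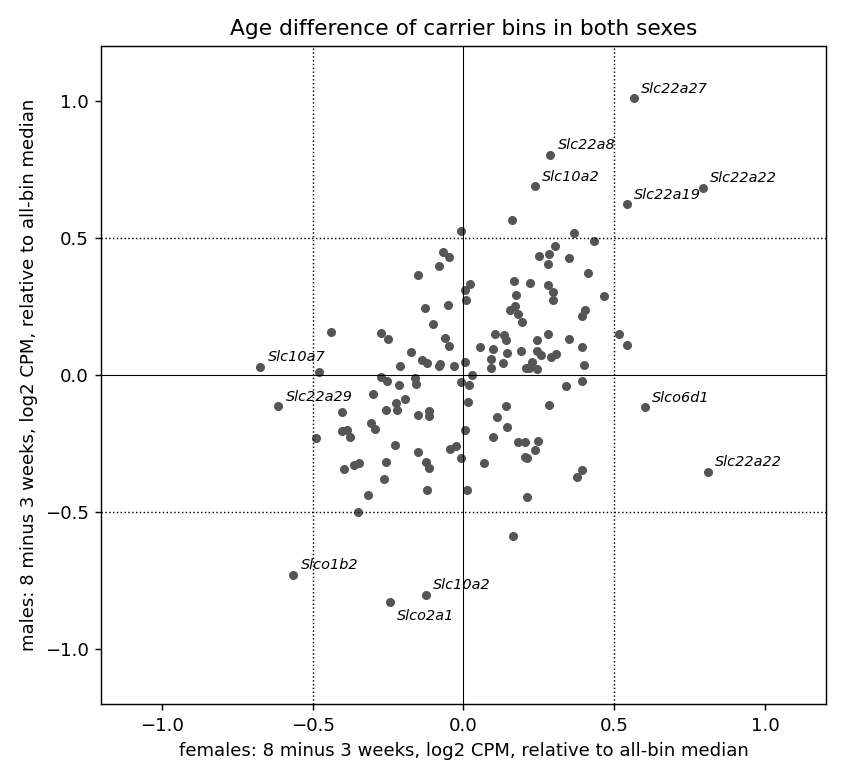
Age difference of the 143 carrier places found in both sexes (8 minus 3 weeks, average log2 CPM, relative to the median of all autosomal bins), females on the horizontal and males on the vertical axis, with dotted lines at 0.5 in each direction. Slc22a27, Slc22a22 and Slc22a19 lie in the upper right corner and Slco1b2 in the lower left.

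By role, the hepatocyte uptake carriers had a median relative difference of -0.15 over 36 bins in females, with 0 higher and 4 lower by at least 0.5. The 4 were 11.1% of the bins, beside 2.78% of all bins. They are few, and among them were the intron and start bins of the single gene Slco2b1 and a bin upstream of Slco1b2. In males the hepatocyte uptake carriers had a median of -0.05 over 23 bins, with 2 higher, 8.70% beside 5.43% of all bins. Lower were 3, 13.0% beside 3.47%. The kidney and intestine carriers had medians of 0.02 over 75 bins and 0.07 over 62 bins, with 3 higher and 0 lower in females and 4 higher and 2 lower in males. The higher bins were 4.00% in females, beside 3.47% of all bins, and 6.45% in males, beside 5.43%. The 2 lower in males were 3.23%, beside 3.47%. Other genes of hepatic bile acid and drug transport, among them the canalicular export pumps and the bile acid receptor, had -0.04 over 49 bins in females, with 2 higher, 4.08%, and 0 lower. In males they had 2 higher, 4.00%, and 0 lower over 50 bins. The Slc10 family had 3 higher and 3 lower in females, 4.69% each, and in males 2 higher, 3.64%, and 4 lower, 7.27%. The testis carriers had 1 higher, 2.33%, and 2 lower, 4.65%, in females, and in males 2 higher, 6.06%, and 0 lower.

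The chromosome 19 Slc22 cluster held strong bins between its genes. In females at 3 weeks 45 of its 52 bins, 86.5%, lay above the table median, and at 8 weeks 31 of 47, 66.0%. In males these were 49 of 69, 71.0%, and 35 of 45, 77.8%. In the controls of both ages the shares were 66.0% in females and 68.8% in males. The shares over all carrier bins lay between 56.2% and 62.9%. High shares were not particular to chromosome 19. In the Slco1 cluster of chromosome 6 they ran from 57.9% in females at 8 weeks to 77.8% in the control females. In the organic cation carrier cluster of chromosome 17 they ran from 33.3% in the control females to 52.6% in females at 8 weeks. The bin annotated to Slc22a8 at chr19:8497995-8498495 lay 92.8 kb upstream of that gene and was at 3.41 and 3.93 in females. In males the bin at chr19:8498049-8498549 was at 3.66 and 4.37. A bin in the body of Slc22a27 at chr19:7939223-7939687 was at 3.69 at 3 weeks and 3.56 at 8 weeks in females. Between ages, 2 of 35 bins of the chromosome 19 cluster were higher by at least 0.5 in females, 5.71% beside 3.47% of all bins. Lower was 1 bin, 2.86% beside 2.78%. In males 4 of 31 were higher, 12.9% beside 5.43%, and 0 lower, beside 3.47%. On chromosome 17, Slc22a2, the renal organic cation carrier, had a bin 26.6 kb upstream at 3.78 in males at 8 weeks.

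**Figure D4:**
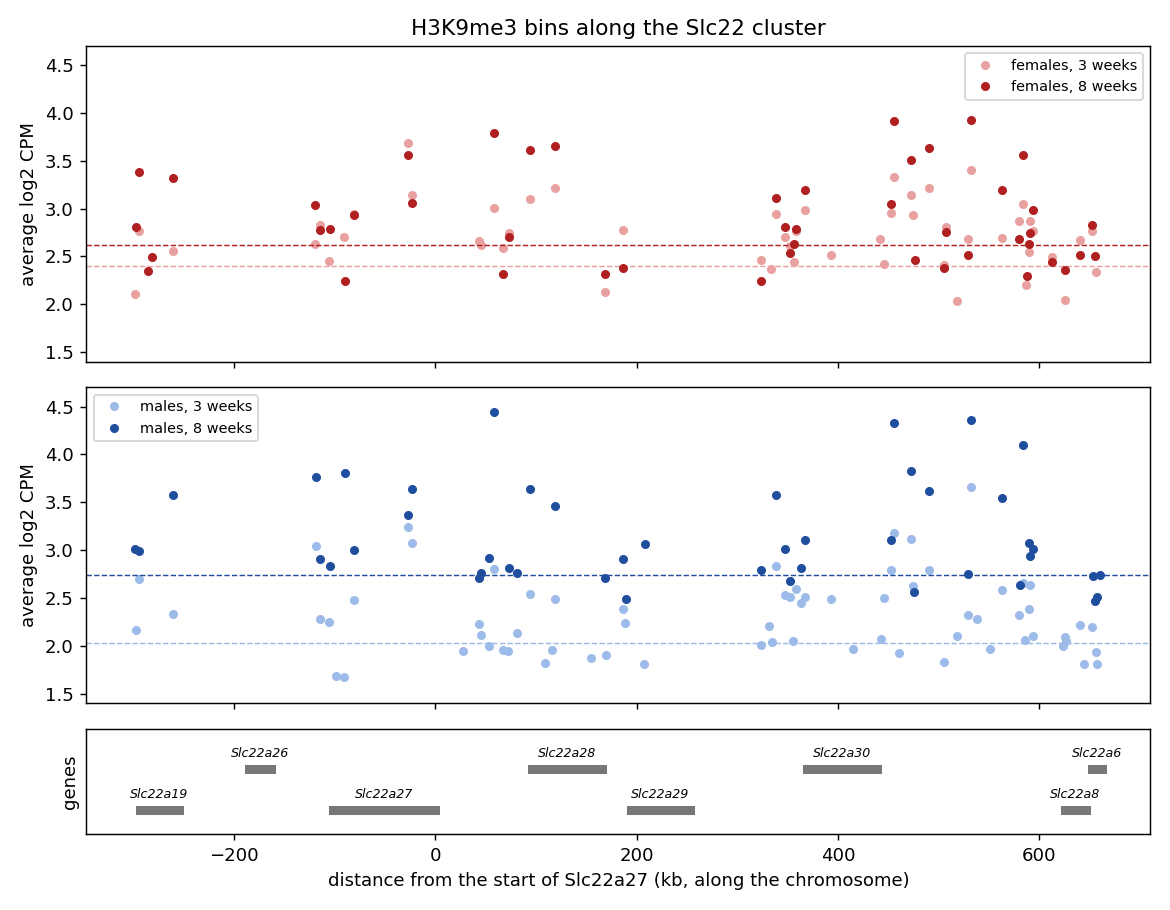
Level of the bins annotated to the Slc22 genes of chromosome 19 (vertical axes, authors' average log2 CPM) by distance from the start of Slc22a27 (horizontal axis, kb), females above and males in the middle, with table medians as dashed lines and gene bodies below. The highest points at 8 weeks lie between gene bodies and reach 4.44 in males at 8 weeks.

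The sex comparison paired bins of males and females at the same age. At 3 weeks 212 carrier pairs were found, and the median of males minus females was -0.33, beside -0.32 over all pairs. At 8 weeks 181 pairs had a median of 0.09, beside 0.10. A difference of at least 0.5 in either direction was found for 49 pairs at 3 weeks, 23.1%, beside 22.4% of all pairs. At 8 weeks it was found for 14, 7.73%, beside 6.93%. Relative to the median, 9 pairs were higher in males at 3 weeks, 4.25% beside 2.16% of all pairs, and 1 was lower, 0.472% beside 2.42%. At 8 weeks 2 were higher, 1.10% beside 2.98%, and 3 lower, 1.66% beside 2.31%.

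The pair most in favour of males at 3 weeks was the intergenic bin of Slc22a22, at 2.33 in females and 2.93 in males, a relative difference of 0.92. An exon bin of Slco3a1 was at 2.79 in females and 1.72 in males, a relative difference of -0.76. A bin annotated to Slc22a26 was higher in males at both ages, with 3.05 beside 2.63 at 3 weeks and 3.77 beside 3.04 at 8 weeks. At 8 weeks the Slc22a27 bin was at 3.79 in females and 4.44 in males. The last exon of Slc10a7 was at 3.12 in females and 2.38 in males, and an intergenic bin of Slco6d1 at 3.25 and 2.59. Of the 463 peaks that hold the female carrier bins, 95 or 20.5% overlapped no peak listed for males, beside 19.6% of all female autosomal peaks. Of the 493 male peaks 132 or 26.8% overlapped none listed for females, beside 27.4% of all male peaks.

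Carrier bins held more repeated sequence than bins at large. The median over all carrier bins was 18.8% in females at 3 weeks and 29.3% in males at 8 weeks. Over all autosomal bins it was 12.2% and 12.0%. Bins masked over at least 50% of their length were 40.1% of the carrier bins and 23.7% of all bins in males at 8 weeks. Outside distal intergenic sequence the carrier medians were 10.1% and 11.4%, beside 8.78% and 8.24% over all bins. GC content was close to that of all bins, with medians of 53.9% in females at 3 weeks for the carriers and 53.7% for all bins. Carrier bins higher at 8 weeks by at least 0.5, 9 in females and 11 in males, had a median masked share of 77.1% and 64.1%. Those lower, 11 and 8, had 13.6% and 27.0%, and the rest 25.7% and 37.3%. The same medians over all autosomal bins that differed were not computed, so these shares cannot be called particular to the carriers. Reads of repeated sequence can fit several places in the genome, and the part of this in the levels was not tested.

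The shares of carrier peaks listed at both ages lay near those of all peaks. In females 77.0% of the carrier peaks of the 3-week table were listed at 8 weeks, beside 72.2% of all peaks, and in males 63.8% beside 60.6%. Of the 334 carrier peaks listed at both ages in females, 80.8% were represented by the same bin at both, beside 74.5% of all peaks listed at both ages. In males this held for 74.5% of 302, beside 71.3%. These shares are descriptions with no test.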

How the data were processed

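H3K9me3 ChIP-seq of whole liver was compared. The authors aligned reads to mm10 (GRCm38), called broad peaks with MACS2, kept peaks found in several replicates, merged them per sex, divided long peaks into bins and counted reads. The deposited values used here are the authors' average log2 CPM per bin, 1 mean over the 8 libraries of a table. Each table lists 1 bin per peak, by a choice not given in the sources used here, and tables were normalized separately. The deposited tables also hold the authors' own fold changes, p-values and false discovery rates between groups, which were not used. The study's methods give 1 approximate read number for all libraries, and the tables hold no total for each, so no interval was computed.

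Bins on autosomes were matched between ages by identical coordinates and between sexes by overlap of at least 0.5 of each (bedtools 2.31.1). A difference of at least 0.5 on the log2 scale was counted, also after subtraction of the median over all bins. Pairing was tested on simulated data. With 1 gene that is not reported here left out, genes named are the hepatocyte uptake carriers, the 5 with the strongest bins by their average over the tables that list each (table medians differ, which can move this rank), the 5 with the largest differences in each direction and sex, and those with a bin within 1 kb of a start. Other features singled out were chosen after their values were seen. Members and lists were chosen with earlier results of these data known. GC and masked shares came from GRCm38.p6.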

Additional observations from a re-analysis of the deposited data

How the results depend on the processing

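The tables hold pooled means, so no library could be left out, no spread is known and the depth behind each value is not given. No paired analysis was possible because the tables hold no value per library. The number of carrier genes with a bin and the median level of carrier bins kept within the tolerances set (a factor of 1.5 for counts and 0.1 for log2 levels) under every alternative run for them. Counts of bins past the threshold depended on it and on the centring. In females the 34 bins became 106 at a threshold of 0.3, 2 at a threshold of 1, 20 with the median of all bins subtracted, 20 among bins above the median signal, 13 without distal intergenic bins and 1 with a single value per gene. In males the 152 bins became 24 at a threshold of 1, 19 with the median subtracted, 95 among bins above the median signal, 78 without distal intergenic bins and 36 with a single value per gene. Between sexes, the 49 pairs at 3 weeks became 1 at a threshold of 1, 10 with the median subtracted, 28 without distal intergenic bins and 2 with a single value per gene. The 14 pairs at 8 weeks became 0, 5, 9 and 1 under the same changes. Fewer bins enter when annotations, signal or genes restrict the set. Without distal intergenic bins the median masked share of carrier bins was 11.1% in females at 8 weeks and in the control females, 9.28% in males at 3 weeks, 11.4% in males at 8 weeks and 9.78% in the control males. Pairing of the sexes by identical coordinates left no carrier pair at 3 weeks or 8 weeks and gives no value.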
